A study of Homo sapiens with 4 samples.

Results

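The genes of glycolysis and of the hypoxia-inducible factor (HIF) response were followed in hTERT-RPE1 cells, a telomerase-immortalised line of human retinal pigment epithelium. The 36 genes were chosen by symbol: 16 core glycolytic enzymes, 3 transporters, 3 regulators of glucose flux, 5 HIF-driven genes (VEGFA, NDRG1, CA9, ADM and BNIP3), 5 other HIF targets, and 4 HIF subunits and prolyl hydroxylases. Of these, 35 were found among 19653 genes with counts, each under 1 Ensembl identifier, and EGLN3 was not analysed here. The sg53BP1 label marks cells in which lentivirus delivered Cas9 and a guide RNA directed at TP53BP1, the gene of the DNA double-strand break repair protein 53BP1. Cells labelled sgControl expressed Cas9 without a guide, so that both groups carried the nuclease vector. Both were untreated, and the labels give 2 libraries for each group without saying whether these came from separate cultures or whether the edited cells were a clone.

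Glycolysis splits glucose into pyruvate in the cytosol, and lactate dehydrogenase then turns pyruvate into lactate, which leaves the cell through monocarboxylate transporters. When oxygen falls, prolyl hydroxylases of the EGLN family no longer mark the HIF alpha subunits for destruction, and the stabilised factor binds hypoxia response elements and raises transcription of many glycolytic enzymes and of genes for vessel growth, pH control and mitophagy. HIF activity is set largely at the protein level, which RNA counts do not measure. In the retina, the pigment epithelium secretes VEGF towards the choroidal vessels and passes glucose from the blood to the photoreceptors.

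Library totals lay between 16654411 and 18164086 counts, and 3 counts corresponded to 0.165 to 0.180 CPM, counts scaled to a common library size. TP53BP1 itself had 431 and 594 counts under the label sgControl, and 1743 and 1516 under the label sg53BP1. The targeted gene was thus higher where the knockout is labelled, and all directions below are given as the labels name the libraries. TP53BP1 shares exon positions with TUBGCP4 on the other strand, and the sources here give no strand setting. Whether such positions added counts, whether the group labels are exchanged, or whether the edited gene still gives RNA, was not tested. With exchanged labels, every gene written here as fallen would have risen. Mitochondrially encoded genes took 2.73% and 1.74% of the counts in sgControl 1 and 2 and 2.93% and 2.87% in sg53BP1 1 and 2. Of 14 retinal pigment epithelium markers listed, RPE65 and TTR were not among the genes with counts, and 8 had enough counts to be tested. Of the 12 with counts, TYR had at most 2 in any library and RLBP1 at most 13. MITF, OTX2, MERTK, KRT8 and KRT18 were present in all 4 libraries. The 12 markers summed to 724 and 1094 CPM in sgControl and 711 and 751 CPM in sg53BP1. Without KRT8 and KRT18 this sum was 67.0 and 75.0 CPM in sgControl and 84.4 and 78.1 CPM in sg53BP1. The 8 fibroblast markers summed to 379 and 336 CPM in sgControl and 203 and 214 CPM in sg53BP1, while 5 endothelial and 3 leukocyte markers summed to at most 16.4 and 0.542 CPM in any library.

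Of the 34 genes with enough counts to be tested, 4 fell in the libraries labelled sg53BP1 and none rose. The 4 were SLC2A3, PFKFB4, VEGFA and NDRG1, and none of the 16 core glycolytic enzymes was among them. A gene was called when its Benjamini-Hochberg adjusted p was under 0.05 in the quasi-likelihood test of edgeR, adjusted over all 13140 tested genes. Among all tested genes 5.08% were called, 3.01% lower and 2.07% higher. At an unadjusted p under 0.05 there were 8 of the 34 genes, each with a negative log2 fold change (sg53BP1 over sgControl), beside 19.3% of all tested genes in either direction and 10.9% with a negative value. DESeq2 called 5 of the 34 lower and limma-voom 3, against 4.33% and 1.67% of all genes, and neither called any higher, against 3.21% and 1.41%. Without the low-count filter 7 were called lower, against 4.77% of all genes, and with a block for the replicate number 3, against 1.29%. Both sg53BP1 libraries lay below both sgControl libraries for 14 of the 34 genes, against 25.9% of all tested genes, and above them for 4, against 24.8%. The median log2 fold change was −0.12, beside −0.02 for all tested genes. In bulk RNA, fewer cells with a transcript and less transcript per cell cannot be told apart.

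**Figure D1:**
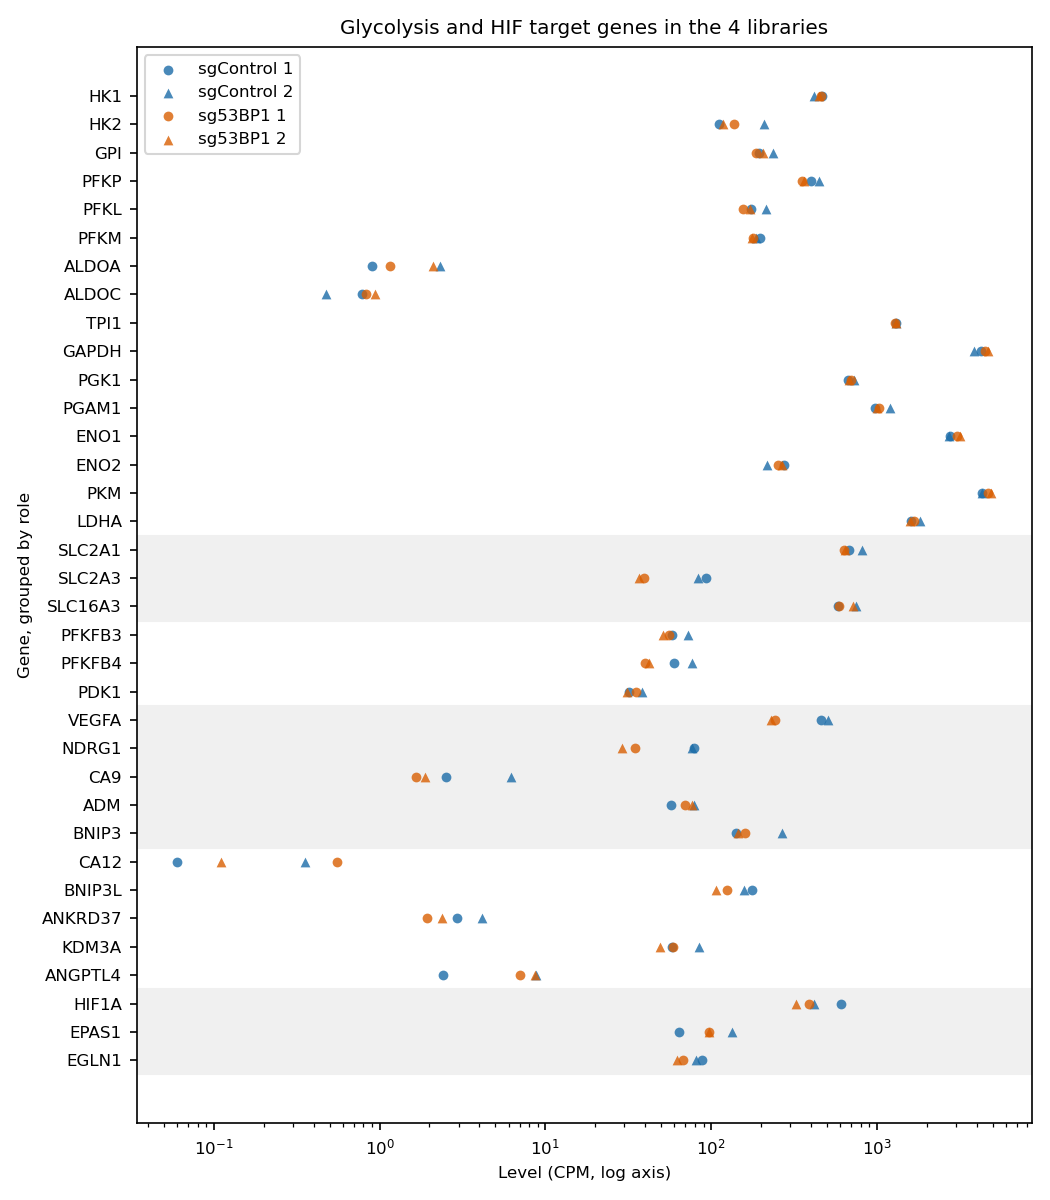
Level of each of the 35 genes in each library, in CPM on a log axis. Rows are genes grouped by role with shaded bands, circles are replicate 1, triangles replicate 2, blue sgControl and orange sg53BP1. Core enzymes such as GAPDH and PKM lay between 3831 and 4896 CPM in all 4 libraries, and ALDOA, ALDOC and CA12 lay at the low end.

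Of the 3 transporters, SLC2A3 fell. SLC2A3 encodes GLUT3, a high-affinity glucose transporter, and was at 92.9 and 83.8 CPM in sgControl 1 and 2 and at 39.4 and 37.0 CPM in sg53BP1 1 and 2. The groups did not overlap, and each pair lay close together. The means of 88.4 ± 6.41 and 38.2 ± 1.68 CPM (SD, n = 2 each) lay 2.32-fold apart (log2 fold change −1.21, standard error 0.14, edgeR adjusted p = 0.00216). SLC2A1, which encodes GLUT1, the main glucose transporter of many cultured cells, was at 678 and 814 CPM in sgControl and 634 and 643 CPM in sg53BP1. It also did not overlap, but its log2 fold change of −0.22 was not called (edgeR adjusted p = 0.404, 95% interval −0.52 to 0.07). SLC16A3 encodes MCT4, the lactate exporter of glycolytic cells, and was at 586 and 747 CPM in sgControl and 589 and 719 CPM in sg53BP1. Replicate 2 was the higher library in both groups, and the groups overlapped (log2 fold change −0.03, 95% interval −0.39 to 0.33, edgeR adjusted p = 0.958). Per kilobase of the principal transcript, SLC2A3 made up 11.4% and 8.81% of the summed GLUT1 and GLUT3 transcript level in sgControl and 5.49% and 5.12% in sg53BP1.

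None of the 16 core glycolytic enzymes was called, beside 5.08% of all tested genes. None of the 16 had an unadjusted p under 0.05, beside 19.3% of all tested genes. Their median log2 fold change was −0.01 beside −0.02 for all tested genes, with 7 positive and 9 negative values. The first steps are run by hexokinases, which phosphorylate glucose, glucose-6-phosphate isomerase, and phosphofructokinases, which commit the sugar to glycolysis. HK1, the broadly expressed hexokinase, was at 463 and 420 CPM in sgControl and 458 and 449 CPM in sg53BP1, with overlapping groups. HK2, the hexokinase induced by HIF in many cells, was at 111 and 208 CPM in sgControl and 137 and 117 CPM in sg53BP1, so that sgControl 2 stood alone above the other libraries. Its log2 fold change of −0.33 had a 95% interval from −1.31 to 0.65. All 3 phosphofructokinase genes had both sg53BP1 libraries below both sgControl libraries by a small margin. Their log2 fold changes were −0.24 for PFKP, −0.25 for PFKL and −0.11 for PFKM (edgeR adjusted p = 0.336, 0.401 and 0.671). Of the 16 core enzymes, 3 lay lower without overlap, against 25.9% of all tested genes, and 4 lay higher, against 24.8%. GPI overlapped, with a log2 fold change of −0.13.

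The later steps of the pathway, where the split sugars are oxidised and ATP is gained, contained the most abundant transcripts of the set. GAPDH, the dehydrogenase that oxidises glyceraldehyde phosphate, was at 4264 and 3831 CPM in sgControl and 4458 and 4702 CPM in sg53BP1. ENO1, the broadly expressed enolase, was at 2773 and 2721 CPM against 3039 and 3178 CPM, and PKM, pyruvate kinase, at 4310 and 4309 CPM against 4675 and 4896 CPM. For these 3 genes both sg53BP1 libraries were the higher, as they were for 24.8% of all tested genes. The log2 fold changes of the 3 were 0.18, 0.18 and 0.15, and none was called (edgeR adjusted p = 0.443, 0.423 and 0.497). The 95% interval of GAPDH ran from −0.08 to 0.43 and that of PKM from −0.09 to 0.39. TPI1, the triose phosphate isomerase, was at 1295 and 1300 CPM in sgControl and 1277 and 1297 CPM in sg53BP1. PGK1, PGAM1, ENO2 and LDHA overlapped between the groups, with log2 fold changes between −0.09 for PGAM1 and 0.08 for ENO2. LDHA, the lactate dehydrogenase subunit that favours lactate formation, was at 1608 and 1814 CPM in sgControl and 1678 and 1590 CPM in sg53BP1 (95% interval of the log2 fold change −0.34 to 0.20). GAPDH has 62, PGAM1 13 and LDHA 6 named pseudogenes in GENCODE release 29, whose near-identical sequence can share reads with the parent gene.

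Both aldolase genes had few counts. ALDOA had 15 and 39 counts in sgControl and 21 and 38 in sg53BP1, and replicate 2 was the higher library in both groups. Exons of ALDOA share positions on the same strand with LOC112694756, which itself had 66 and 89 counts in sgControl and 76 and 82 in sg53BP1. The labels do not say how reads that lie in both genes were counted, so the level of ALDOA is uncertain. ALDOC, the aldolase best known from brain, had 13 and 8 counts in sgControl and 15 and 17 in sg53BP1 (log2 fold change 0.49, 95% interval −0.78 to 1.76).

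Which isozyme prevailed was the same in all 4 libraries. Per kilobase of the principal transcript, HK1 made up 76.4% to 87.0% of the summed HK1 and HK2 transcript level, and HK2 was highest in sgControl 2, with 23.6%. PFKP made up 53.6% to 55.1% of the 3 phosphofructokinases and ENO1 92.6% to 93.9% of the enolase pair. With the length of all exons of a gene in place of the principal transcript, the corresponding ranges were 66.0% to 80.0% for HK1, 63.6% to 65.1% for PFKP and 89.1% to 91.0% for ENO1.

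Among the flux regulators, PFKFB4 fell. PFKFB3 and PFKFB4 are bifunctional enzymes that make and remove fructose-2,6-bisphosphate, the activator of phosphofructokinase. PFKFB4 was at 59.8 and 76.7 CPM in sgControl and 39.7 and 42.0 CPM in sg53BP1. The groups did not overlap, and the sgControl pair was further apart than the sg53BP1 pair. From 68.3 ± 11.9 to 40.9 ± 1.62 CPM (SD, n = 2 each) it was 1.67-fold lower (log2 fold change −0.74, standard error 0.16, edgeR adjusted p = 0.0339). PFKFB4 was not called with limma-voom (adjusted p = 0.0711), nor with a block for the replicate number (adjusted p = 0.0712), and it shares exon positions with UCN2. PFKFB3 was at 57.7 and 72.2 CPM in sgControl and 55.5 and 51.5 CPM in sg53BP1, without overlap but not called (log2 fold change −0.28, edgeR adjusted p = 0.367). PDK1, a kinase that shuts the pyruvate dehydrogenase complex, overlapped between the groups (log2 fold change −0.09, 95% interval −0.44 to 0.26).

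Of the 5 HIF-driven genes, VEGFA and NDRG1 fell and none rose, beside 3.01% and 2.07% of all tested genes. The median log2 fold change of the 5 was −1.04, which is the value of VEGFA, beside −0.02 for all tested genes. VEGFA encodes the growth factor that drives vessel sprouting, and was at 462 and 507 CPM in sgControl and 243 and 228 CPM in sg53BP1. The groups did not overlap, and the gap between them was several times that within either pair. The means were 484 ± 31.7 and 235 ± 10.3 CPM (SD, n = 2 each), which put VEGFA 2.06-fold lower (log2 fold change −1.04, standard error 0.12, edgeR adjusted p = 0.00276). NDRG1, a hypoxia- and stress-induced cytoplasmic protein, was at 79.2 and 76.3 CPM in sgControl and 34.9 and 28.9 CPM in sg53BP1. Here too the groups were apart, at 77.8 ± 2.00 and 31.9 ± 4.29 CPM (SD, n = 2 each), 2.44-fold lower (log2 fold change −1.29, standard error 0.15, edgeR adjusted p = 0.00243). VEGFA shares exon positions with an antisense gene, and NDRG1 with no other annotated gene.

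The other HIF-driven genes were not called. CA9, the cell-surface carbonic anhydrase often used as a marker of hypoxia, had 42 and 105 counts in sgControl and 30 and 34 in sg53BP1, or 2.53 and 6.24 CPM against 1.66 and 1.89 CPM. Both sg53BP1 libraries were the lower, but the sgControl libraries differed 2.47-fold, and the log2 fold change of −1.30 had a 95% interval from −2.38 to −0.23 (edgeR adjusted p = 0.176). It was −1.78 without sgControl replicate 1, which was called (adjusted p = 5.12e-06), and −0.50 without sgControl replicate 2, which was not (adjusted p = 0.50). BNIP3, a mitophagy receptor, was at 142 and 267 CPM in sgControl and 159 and 146 CPM in sg53BP1. Only sgControl 2 stood apart, and the groups overlapped (log2 fold change −0.42, 95% interval −1.38 to 0.54, edgeR adjusted p = 0.603). BNIP3 has 39 named pseudogenes, of which 7 had counts of their own. ADM, which encodes the vasodilator peptide adrenomedullin, was at 57.3 and 79.1 CPM in sgControl and 69.6 and 76.5 CPM in sg53BP1, with the 2 sg53BP1 libraries between those of sgControl (log2 fold change 0.10, 95% interval −0.29 to 0.48).

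**Figure D2:**
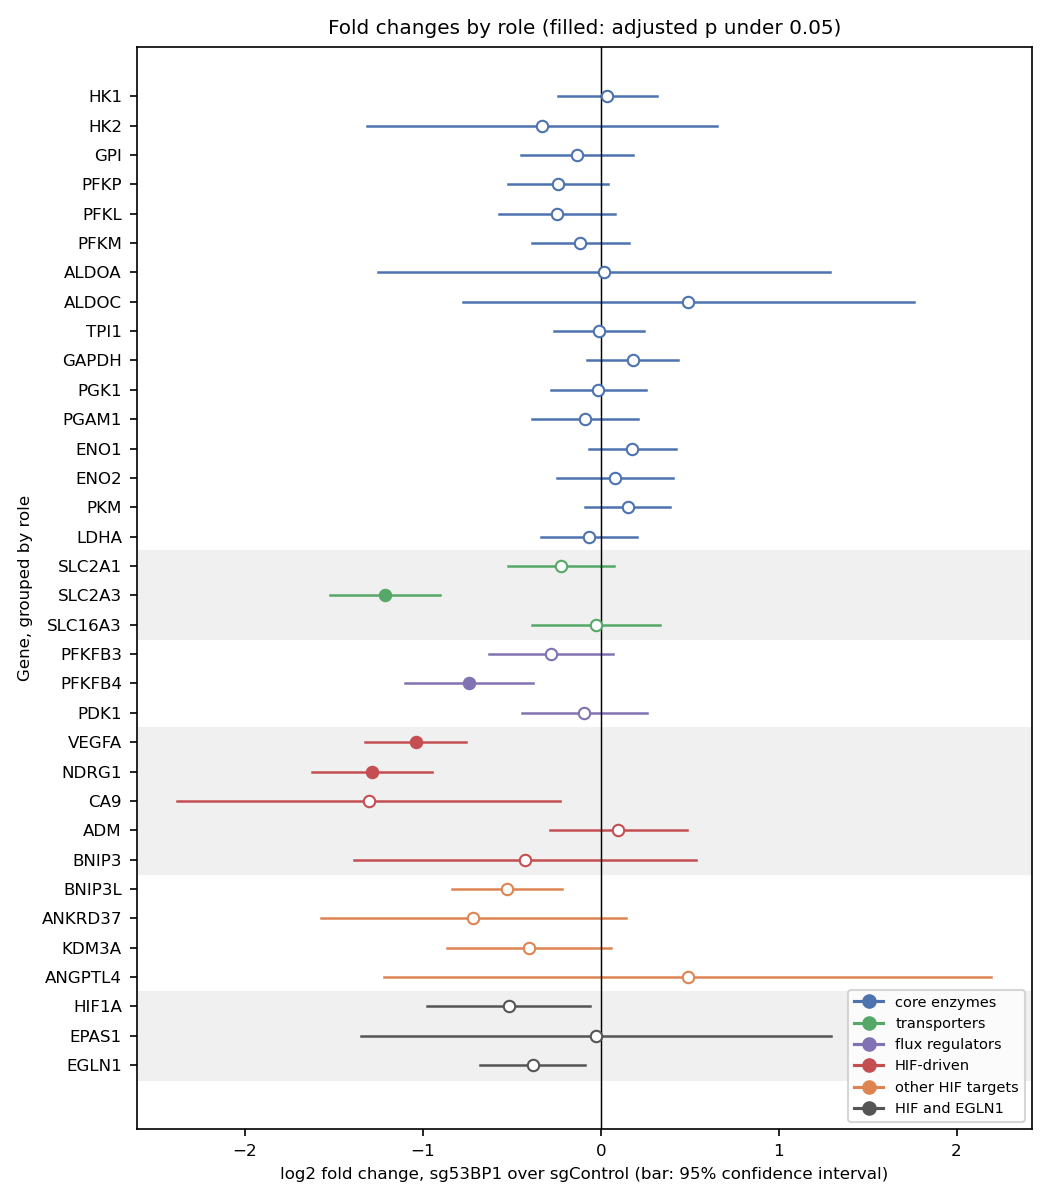
Log2 fold change (sg53BP1 over sgControl) of the 34 tested genes, grouped by role, with the 95% confidence interval of the edgeR fit as a bar and filled circles for an adjusted p under 0.05. The filled circles are SLC2A3, PFKFB4, VEGFA and NDRG1, between −1.29 and −0.74, while the core enzymes from TPI1 to LDHA lie close to 0.

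No other HIF target among the 36 genes was called. BNIP3L, which encodes NIX, a mitophagy receptor related to BNIP3, was at 177 and 157 CPM in sgControl and 125 and 107 CPM in sg53BP1. The groups did not overlap, and the log2 fold change was −0.53 (standard error 0.14, edgeR adjusted p = 0.0639). It was called with the DESeq2 Wald test (adjusted p = 0.0184). ANKRD37, a small ankyrin repeat protein, had 49 and 70 counts in sgControl and 35 and 43 in sg53BP1, without overlap (log2 fold change −0.72, 95% interval −1.58 to 0.14, edgeR adjusted p = 0.35). KDM3A, a histone H3 lysine 9 demethylase, was at 58.1 and 84.6 CPM in sgControl and 58.6 and 49.3 CPM in sg53BP1, so that sgControl 1 lay between the sg53BP1 libraries. ANGPTL4, a secreted inhibitor of lipoprotein lipase, had 40 and 148 counts in sgControl and 128 and 156 in sg53BP1, where sgControl 1 alone was low (log2 fold change 0.49, standard error 0.64, edgeR adjusted p = 0.759). CA12, a second membrane carbonic anhydrase, had 1 and 6 counts in sgControl and 10 and 2 in sg53BP1 and was not tested.

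The RNA of the HIF subunits and of EGLN1 gave no called gene, although 2 of the 3 had an unadjusted p under 0.05, as had 19.3% of all tested genes. HIF1A, the oxygen-regulated subunit found in most cells, was at 606 and 417 CPM in sgControl and 388 and 327 CPM in sg53BP1. The groups did not overlap, with sgControl 1 the highest, and the log2 fold change was −0.52 (95% interval −0.98 to −0.06, edgeR adjusted p = 0.209). It was −0.19 without sgControl replicate 1 (adjusted p = 0.244) and −0.75, called, without sgControl replicate 2 (adjusted p = 7.08e-10). EPAS1, which encodes HIF-2 alpha, was at 63.9 and 134 CPM in sgControl and 97.4 and 97.0 CPM in sg53BP1. Both sg53BP1 libraries lay between the sgControl libraries (log2 fold change −0.03, 95% interval −1.35 to 1.29). EGLN1 encodes PHD2, the main oxygen sensor that hydroxylates HIF alpha, and was at 88.5 and 80.7 CPM in sgControl and 67.8 and 62.0 CPM in sg53BP1. It did not overlap between the groups and had a log2 fold change of −0.38 (95% interval −0.68 to −0.09, edgeR adjusted p = 0.151). Per kilobase of the principal transcript, EPAS1 made up 7.40% of the summed HIF1A and EPAS1 transcript level in sgControl 1, 19.6% in sgControl 2, and shares between these in both sg53BP1 libraries.

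Set side by side, the medians of the log2 fold change were −0.01 for the core enzymes, −1.04 for the HIF-driven genes, −0.47 for the tested other HIF targets and −0.38 for the HIF subunits with EGLN1. The list of HIF-driven genes holds 5 genes spread from −1.30 to 0.10. Its median was −0.50 without sgControl replicate 2. These medians are descriptions and were not tested against each other. Several core enzymes and SLC2A1 are themselves known HIF targets, so that the lists separate genes by function rather than by whether HIF can bind them.

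The 2 sgControl libraries differed on part of these genes, as they did on part of all tested genes. Their log2 levels lay more than 0.5 apart for 9 of the 34 genes, against 21.6% of all tested genes, while those of the sg53BP1 libraries did so for 1, against 8.21%. The 9 were HK2, ALDOA, CA9, BNIP3, KDM3A, ANGPTL4 and EPAS1, which were higher in sgControl 2, and ALDOC and HIF1A, which were higher in sgControl 1. sgControl 2 was also the library with the lowest mitochondrial share, and the part of this difference in the results was not tested. Without sgControl replicate 1, HK2 and BNIP3 were called lower, with log2 fold changes of −0.68 and −0.78. Without sgControl replicate 2, both changed sign, to 0.20 and 0.11, and were not called. EPAS1 went from −0.43, called lower, without sgControl replicate 1 to 0.61, called higher, without sgControl replicate 2. Also called without sgControl replicate 1 were GAPDH at 0.29, and PFKL, SLC2A1, PFKFB3 and KDM3A at −0.36, −0.32, −0.40 and −0.62. Also called without sgControl replicate 2 were ANGPTL4 at 1.71 and EGLN1 at −0.44, and BNIP3L was called in both fits, at −0.41 and −0.60. Of the 34 genes, 1 was called higher and 13 lower without sgControl replicate 1, against 11.8% and 12.7% of all genes. Without sgControl replicate 2, 2 were called higher and 7 lower, against 8.77% and 9.65%.

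**Figure D3:**
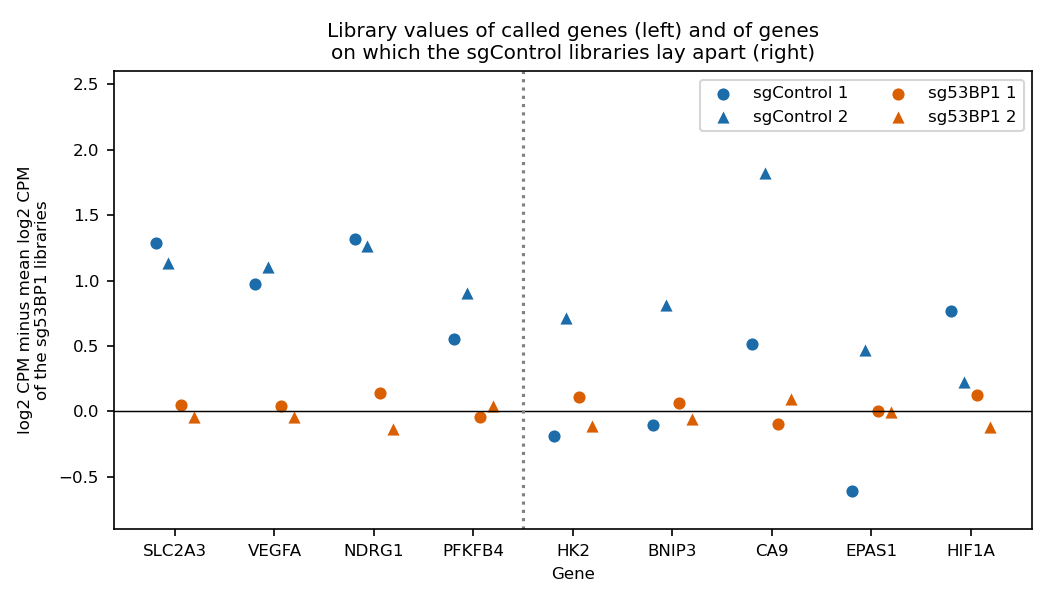
Log2 CPM of 9 genes in each library, as the difference from the mean of the sg53BP1 libraries. Circles are replicate 1 and triangles replicate 2, blue for sgControl and orange for sg53BP1. For SLC2A3, VEGFA, NDRG1 and PFKFB4, left of the dotted line, both sgControl libraries lie above the sg53BP1 pair, while for HK2, BNIP3 and EPAS1 they fall on both sides of it.

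SLC2A3, VEGFA, NDRG1 and PFKFB4 were called without either sgControl library, with log2 fold changes of −0.54 or below. Without sg53BP1 replicate 1 or 2, when the spread came from the sgControl pair alone, none of the 4 was called. In these fits 0.0219% and 0.0293% of all genes were called higher and 0.0146% and 0.00731% lower. The adjusted p was then 0.15 and 0.169 for SLC2A3, 0.195 and 0.224 for VEGFA, 0.105 and 0.166 for NDRG1, and 0.493 and 0.457 for PFKFB4. Their log2 fold changes in these fits lay between −1.43 and −0.70. In the authors' deposited table, with its sign turned to knockout over control, the log2 fold change was −1.19 for SLC2A3, −1.02 for VEGFA, −1.27 for NDRG1 and −0.72 for PFKFB4. The adjusted p of the authors' deposited table was 2.14e-09, 1.18e-10, 2.2e-09 and 0.00549 for these genes in that order, and 0.0382 for BNIP3L.

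**Figure D4:**
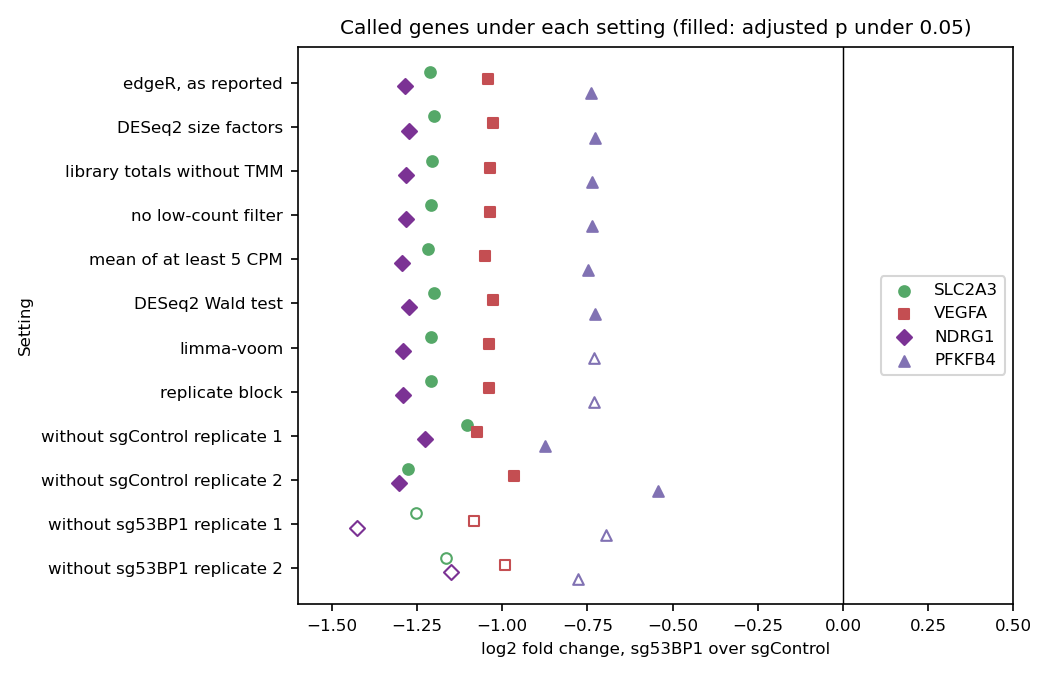
Log2 fold change (sg53BP1 over sgControl) of SLC2A3, VEGFA, NDRG1 and PFKFB4 under the reported edgeR fit and 11 other settings, filled where the adjusted p was under 0.05. All values are below 0, and all markers are open in the fits without an sg53BP1 library.

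The promoters of these genes were read for the core of the hypoxia response element, because VEGFA, NDRG1, LDHA and PGK1 are all known HIF targets, of which the first pair was called here and the second was not. The core was searched as ACGTG and GCGTG on both strands, that is also as CACGT and CACGC, in the 250 bases before each start in the RefSeq promoter table (GRCh38.p14). ACGTG overlaps the E-box CACGTG, which other factors bind and which gives a match on each strand. Of the 35 genes, 31 have an entry. SLC2A3, VEGFA, NDRG1 and BNIP3L do not, so the search could not set VEGFA and NDRG1 against LDHA and PGK1. PFKFB4 alone stands for the called genes, and bases further from the start were not searched. ACGTG or CACGT stood in 22 of 59 promoters of these genes, 37.3%, against 18.5% of all 35116 promoters. The 59 promoters are starts of 31 genes, of which 19 held ACGTG or CACGT in at least 1. The list holds genes chosen as HIF targets, so these shares are a description and not a test. Any of the 4 words stood in 43.2% of all promoters, and that share was not calculated for these genes. PFKFB4, the called gene with an entry, held 1 copy of GCGTG and none of ACGTG. LDHA, which was not called, held 5 matches of ACGTG over both strands, 4 of them from 2 copies of CACGTG, all in the first of its 2 entries, and none of ACGTG in the second. PGK1 held 2 with 1 further GCGTG. CA9 held 1 CACGT, starting 18 bases before the transcription start. A match is a run of letters and not a measured binding site. These 4 are shown as the called gene with an entry, the HIF marker CA9, and PGK1 and LDHA, a pair of core enzymes chosen as known HIF targets from among several core enzymes with matches, each 5′ to 3′ along the gene's own strand, with matches in capitals; PFKFB4 lies at chr3:48556804-48557053 (minus strand), CA9 at chr9:35673678-35673927 (plus), PGK1 at chrX:78103998-78104247 (plus) and LDHA at chr11:18394313-18394562 (plus), its first entry.
PFKFB4: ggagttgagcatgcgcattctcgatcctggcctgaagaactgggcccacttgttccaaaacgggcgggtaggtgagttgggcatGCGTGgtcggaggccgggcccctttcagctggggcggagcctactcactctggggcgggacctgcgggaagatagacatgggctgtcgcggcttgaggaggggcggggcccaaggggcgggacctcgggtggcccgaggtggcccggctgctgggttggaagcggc
CA9: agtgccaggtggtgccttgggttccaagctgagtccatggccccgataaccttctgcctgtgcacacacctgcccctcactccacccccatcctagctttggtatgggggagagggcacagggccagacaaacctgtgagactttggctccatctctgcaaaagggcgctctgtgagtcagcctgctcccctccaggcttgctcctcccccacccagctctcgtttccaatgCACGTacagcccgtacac
PGK1: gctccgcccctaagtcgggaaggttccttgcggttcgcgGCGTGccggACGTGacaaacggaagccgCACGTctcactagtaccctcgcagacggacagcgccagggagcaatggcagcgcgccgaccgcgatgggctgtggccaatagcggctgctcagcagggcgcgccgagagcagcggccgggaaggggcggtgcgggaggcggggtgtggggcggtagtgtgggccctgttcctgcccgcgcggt
LDHA: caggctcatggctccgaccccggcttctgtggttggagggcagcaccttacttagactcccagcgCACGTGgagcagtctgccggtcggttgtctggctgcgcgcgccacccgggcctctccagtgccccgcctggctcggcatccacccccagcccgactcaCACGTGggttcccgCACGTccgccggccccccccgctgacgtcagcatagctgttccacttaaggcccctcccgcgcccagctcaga

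Other genes of these pathways were tested alongside. Of 34 other hypoxia genes tested, 7 fell and none rose, beside 3.01% and 2.07% of all tested genes. The log2 fold changes of the 34 had a median of −0.36, with 8 positive and 26 negative values. They ran from −1.82 for STC2 to 3.61 for IGFBP3, which was not called. The list was chosen with earlier results of these data known, so its counts are a description and not a test. STC2, a secreted glycoprotein hormone of calcium and phosphate balance, was at 1829 and 1432 CPM in sgControl and 462 and 461 CPM in sg53BP1. It was 3.53-fold lower (log2 fold change −1.82, standard error 0.14, edgeR adjusted p = 3.97e-04), with the groups far apart. TMEM45A, a transmembrane protein, was 2.18-fold lower and P4HA2, a subunit of collagen prolyl hydroxylase, 1.94-fold (edgeR adjusted p = 0.00721 and 0.00942). LOX, CITED2 and BHLHE40 also fell, a collagen crosslinking enzyme, an inhibitor of HIF coactivator binding, and a circadian repressor. Their log2 fold changes were −1.30, −0.89 and −0.51 (edgeR adjusted p = 0.0373, 0.0298 and 0.0474). The sgControl libraries were at 379 and 607 CPM for LOX and at 409 and 582 CPM for CITED2. Values of LOX, CITED2 and BHLHE40 under other settings are not given here. STC2, TMEM45A and P4HA2 were not called without sg53BP1 replicate 1 or 2 (adjusted p between 0.105 and 0.301). LOX and P4HA2 are also genes of the collagen matrix, and of the fibroblast markers given above, THY1 and PDGFRA were called lower among 5 tested; the part of this in the result was not tested.

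Of the 13 tested HIF pathway factors outside the 36, none was called, beside 5.08% of all tested genes. None of these 13 factors had an unadjusted p under 0.05, beside 19.3%. These include ARNT, the constant partner of HIF alpha, VHL, the ubiquitin ligase subunit that recognises hydroxylated HIF alpha, and HIF1AN, the asparaginyl hydroxylase, with log2 fold changes of −0.09, −0.02 and −0.13. Of 32 other genes of glucose and pyruvate use and 7 of the pentose phosphate branch, none was called by edgeR, and 4 and 1 had an unadjusted p under 0.05, which 19.3% of all tested genes had.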

How the data were processed

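Counts of 4 RNA-seq libraries of hTERT-RPE1 cells were analysed. Per the labels' protocols, 2 µg of RNA per library gave paired-end reads of 150 bp. The submitters' processing notes name build hg19, HTSeq 0.6.0, HISAT2 2.1.0 and Bowtie2 2.2.3, without their roles; neither annotation nor strand setting is given in the sources here, so overlapping genes cannot be told apart. The authors deposited read counts per gene, not normalized. The deposited table also holds their comparison: a mean signal, a log2 fold change with its error, p-values, raw and adjusted, and a score (the test statistic), in columns whose names, per the file headers, are those of DESeq2 output. The sign of their log2 fold change equalled control over knockout for 97.12% of 11938 tested genes with at least 100 counts, so it was turned.

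Rows repeating an identifier, 397 of 20050, were removed. Groups were compared with edgeR 4.0.16 in R 4.3.3 (filterByExpr, TMM, robust quasi-likelihood F test, group as the only term), with Benjamini-Hochberg adjustment over 13140 genes. Standard errors and 95% intervals came from the F statistic. CPM values are TMM-scaled, as mean ± SD of 2 libraries. P-values measure the spread between these libraries, which may be technical, and an exact permutation of 2 against 2 cannot go below 0.333. DESeq2 1.42.0 and limma 3.58.1 were alternatives. The fitting code was also run on simulated counts drawn with the same variation for every gene and both groups. The library pairs here differ in spread, so that run checks the code and not the calls. Exon overlaps, pseudogenes, and transcript lengths (the median of APPRIS principal transcripts) came from GENCODE release 29, on another build, without coordinates.

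Genes and lists were chosen with earlier results of these data known. Library values are given for all genes called, for the HIF-driven genes, HIF subunits, EGLN1 and transporters, for genes whose absolute log2 fold change reached 0.5, and of each other list for up to 4 called genes with the smallest adjusted p; further values were chosen after they were seen. Some genes of these lists are counted but not reported here by name.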

Additional observations from a re-analysis of the deposited data

How the results depend on the processing

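SLC2A3, VEGFA and NDRG1 kept their call in all 7 settings other than leaving out a library, and PFKFB4 in 5 of them. The count of all called genes, 667 as reported, was 1548 without the low-count filter, 404 with limma-voom, 297 with the replicate number as a block, and between 5 and 3358 when 1 library was left out. Among the 34 genes, 7 were called lower without the low-count filter, where CA9 (adjusted p = 0.0264), HIF1A (adjusted p = 0.00481) and BNIP3L (adjusted p = 0.00499) joined, and between 0 and 13 lower and 0 and 2 higher when 1 library was left out. The median log2 fold change of the core enzymes was −0.0010 with DESeq2 size factors and with the DESeq2 Wald test, −0.049 where the mean had to reach 5 CPM, and between −0.042 and 0.040 when 1 library was left out. That of the HIF-driven genes was −0.74 where the mean had to reach 5 CPM and CA9 drops out, and between −1.08 and −0.50 when 1 library was left out.

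Of the 34 genes, EPAS1 alone was called with a turned sign in any of the 11 settings. TPI1 was at 2.42e-05 with DESeq2 size factors and with the DESeq2 Wald test, and EPAS1 at 0.069 with limma-voom and 0.066 with the block. When 1 library was left out, the log2 fold change ran from −0.47 to 0.86 for ALDOA, −0.019 to 0.017 for TPI1, −0.084 to 0.36 for ADM, −0.13 to 1.71 for ANGPTL4, −0.024 to 0.14 for HK1, −0.68 to 0.20 for HK2, −0.23 to 0.019 for GPI, −0.034 to 0.048 for PGK1, −0.19 to 0.068 for PGAM1, −0.072 to 0.29 for ENO2, −0.12 to 0.031 for LDHA, −0.17 to 0.17 for SLC16A3, −0.19 to 0.057 for PDK1, −0.78 to 0.11 for BNIP3 and −0.43 to 0.61 for EPAS1. Same-numbered libraries did not deviate together (correlation across 13140 genes 0.029), so the numbers were not taken as pairs; the replicate block left 3 of the 4 genes called. A group reduced to 1 library takes its spread from the remaining pair. With 2 libraries per group, wide intervals such as that of EPAS1 allow differences of either sign, and genes with few counts (CA9, CA12, ALDOA, ALDOC) are limited by depth.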

Other observations

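Among genes of glucose use outside the 36, chosen after their values were seen, SLC2A10, which encodes the transporter GLUT10, had 212 and 9 counts in sgControl 1 and 2 and 147 and 141 in sg53BP1. PFKFB2, a relative of PFKFB3 and PFKFB4, had 25 and 151 counts in sgControl and 134 and 110 in sg53BP1. For both genes a single sgControl library stood apart from the other 3, a different one for each gene, and neither was called (edgeR adjusted p = 0.963 and 0.893). HKDC1, a hexokinase domain protein, had 62 and 106 counts in sgControl and 181 and 210 in sg53BP1, and SLC16A7, the monocarboxylate transporter MCT2, 583 and 346 against 1239 and 944. Both were higher in both sg53BP1 libraries without reaching the threshold (log2 fold changes 1.11 and 1.12, edgeR adjusted p = 0.0735 and 0.129). IGFBP3, an insulin-like growth factor binding protein counted among the hypoxia genes, was higher in both sg53BP1 libraries without being called, with 59 and 291 counts in sgControl and 2314 and 2284 in sg53BP1 (edgeR adjusted p = 0.276).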
